A study of Mus musculus with 16 samples.

Results

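The genes described here are the enzymes that turn cholesterol into bile acids in the liver, together with Nr0b2, the small heterodimer partner that represses some of them. They were Cyp7a1, Cyp27a1, Cyp7b1, Cyp8b1, Hsd3b7, Akr1d1, Slc27a5, Baat and Nr0b2. A probe was taken as belonging to a gene when its RefSeq accession was that of the gene, which gave 10 probes for the 9 genes of 55681 probes on the array. Slc27a5 had 2 probes, A_51_P289742 and A_55_P2073557, and each other gene had 1. All 10 probes passed the filter on dim probes, as did 29690 probes in all.

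RNA was measured in liver from B6C3F1 females, a hybrid mouse strain common in toxicology. Treated mice received 8 mg furan per kg body weight in corn oil by gavage for 21 days, and control mice received corn oil alone. The mice were 5 to 6 weeks old when purchased, and livers were collected 4 h after the last dose. Liver tissue was kept in formalin for 3 weeks or 18 h before embedding in paraffin, so the 4 groups were furan at 3 weeks, corn oil at 3 weeks, furan at 18 h and corn oil at 18 h. RNA came from 2 sections of 10 µm per liver at 3 weeks and from 1 such section at 18 h. Effects of the time in formalin and of the number of sections therefore cannot be told apart. Each of the 16 arrays, 4 per group, carried 1 liver sample in Cy5 against a pool of all samples in Cy3, and values below are log2 ratios of sample over pool. A level of 0 thus means the level in the pool, and only differences between groups can be read for a probe.

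Bile acid synthesis starts along a classical route, in which Cyp7a1 adds a hydroxyl group to cholesterol and sets the rate, or along an alternative route opened by Cyp27a1 and continued by Cyp7b1. Hsd3b7 and Akr1d1 then change the steroid nucleus, Cyp8b1 decides how much cholic acid is made, and Slc27a5 and Baat link the product to coenzyme A and to taurine or glycine. Bile acids returning to the liver activate the receptor FXR, which induces Nr0b2, and Nr0b2 protein in turn holds back Cyp7a1 and Cyp8b1.

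Array quality limited some of these values. The share of all probes well above background was 35.9% to 41.4% in furan livers and 32.3% to 36.7% in corn oil livers at 3 weeks, and 51.9% to 55.2% in furan livers and 44.3% to 50.1% in corn oil livers at 18 h. No sample spot was saturated, and precision rests on how many arrays each group had. Hepatocyte markers checked the tissue label: 9 of 10 were tested, and all 9 were well above background on all 16 arrays. Of 6 bile duct markers, Krt19, Sox9, Epcam and Cftr were among those that did not pass the filter. Corn oil arrays 2.1 and 2.2 at 3 weeks share sample number 2, correlated at r = 0.92 over tested probes, and were averaged, which left 15 samples. Their columns in the authors' deposited value table each matched the scanner file of the other array better, so which of them is which is uncertain, and the average does not depend on it. The arrays lay on 2 slides, each holding 2 arrays of every group.

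The first comparison asked what furan did in livers fixed for 18 h. In furan livers 3 of the steps were lower than in corn oil livers: 12-alpha hydroxylation (Cyp8b1), the alternative-route hydroxylation by Cyp27a1, and conjugation (Baat and 1 probe of Slc27a5). The enzymes acting on the steroid nucleus, Hsd3b7 and Akr1d1, were higher. The rate-limiting Cyp7a1, and with it Cyp7b1 and Nr0b2, did not pass the test. In all, 6 of 10 probes were called by limma at an adjusted p under 0.05, with 2 higher and 4 lower. Over all 29690 probes 47.2% were called, 20.4% higher and 26.8% lower, so a call was common on this array and the 6 of 10 is read as no more than that. The groups did not overlap for 6 of 10 probes, against 39.2% of all probes. The median difference, furan minus corn oil, was -0.31 over the 10 probes and -0.05 over all probes.

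Cyp8b1 and Slc27a5 had the largest furan differences of the 10 probes. Cyp8b1, the 12-alpha hydroxylase, had log2 ratios of 0.24, -0.43, -0.07 and -0.25 in furan livers 41, 42, 43 and 44 at 18 h, against 1.1, 1.02, 0.91 and 0.84 in corn oil livers 2, 3, 4 and 6. Every furan liver lay below every corn oil liver. The difference was -1.09 (SE 0.14), a level 2.13-fold lower with furan, with an adjusted p of 0.000139. Because these are bulk samples, fewer cells of a type and less RNA per cell cannot be told apart, here or for any gene below. Over the 9 tested hepatocyte markers the mean log2 ratio was -0.08 to 0.01 in furan livers and 0.33 to 0.40 in corn oil livers at 18 h, with 6 of 9 called lower, 1 (Hnf4a) called higher and a median difference of -0.71. Of other cell types, 2 of 3 erythroid markers were called lower (median difference -1.01), as was 1 of 2 tested bile duct markers (-0.35). Sinusoidal endothelial markers had 3 of 5 lower and 1 higher (-0.36), and stellate cell markers 3 of 6 lower and 1 higher (-0.30). Of 5 tested Kupffer cell and macrophage markers 1 was lower (0.10), and of 2 tested T and B cell markers 1 was lower (-0.10). Over all probes 20.4% were called higher and 26.8% lower. The part of the marker shifts in the differences of the bile acid genes was not tested.

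Slc27a5, the bile acid coenzyme A ligase, gave different answers at its 2 probes. At A_51_P289742 furan livers 41 to 44 had 0.22, 0.26, -0.14 and -0.04 at 18 h, against 0.69, 0.85, 0.99 and 0.91 in corn oil livers 2, 3, 4 and 6. The groups stood apart, and the level was 1.72-fold lower with furan (log2 difference -0.78, SE 0.09, adjusted p 9.90e-05). At A_55_P2073557 the furan livers had -0.02, -0.15, -0.15 and -0.08, against -0.06, -0.15, -0.01 and 0.03 in the corn oil livers. These values overlapped, and the difference was -0.06 (95% interval -0.24 to 0.13, adjusted p 0.605). The intervals of the 2 probes, -0.99 to -0.58 and -0.24 to 0.13, do not meet, although both probes carry the same accession. The second probe was the brighter one, with a median spot signal 495 times the local background against 36.7 times for the first, so an analysis that keeps the brightest probe of a gene would report Slc27a5 as not called.

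Baat, which joins bile acids to taurine or glycine, was also lower. It had -0.04, 0.10, -0.16 and -0.03 in furan livers 41 to 44 at 18 h, against 0.37, 0.30, 0.45 and 0.21 in corn oil livers. The lowest corn oil liver, number 6, lay above all furan livers, and the level was 1.29-fold lower with furan (log2 difference -0.37, SE 0.09, adjusted p 0.00555).

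Cyp27a1, the mitochondrial sterol 27-hydroxylase, was the 1 member with replicate spots, 10 on each array. Its means were -0.06, 0.02, -0.30 and -0.37 in furan livers 41 to 44 at 18 h, against 0.70, 0.38, 0.70 and 0.38 in corn oil livers 2, 3, 4 and 6. All furan livers lay below all corn oil livers, and the level was 1.65-fold lower with furan (log2 difference -0.72, SE 0.11, adjusted p 0.000560). The SD over the spots of an array was 0.045 to 0.126, with a median of 0.080, while the SD over the 4 livers was 0.19 in the furan group and 0.18 in the corn oil group. Spots of 1 array share their labelling and slide, so their SD leaves out the spread between arrays.

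**Figure D1:**
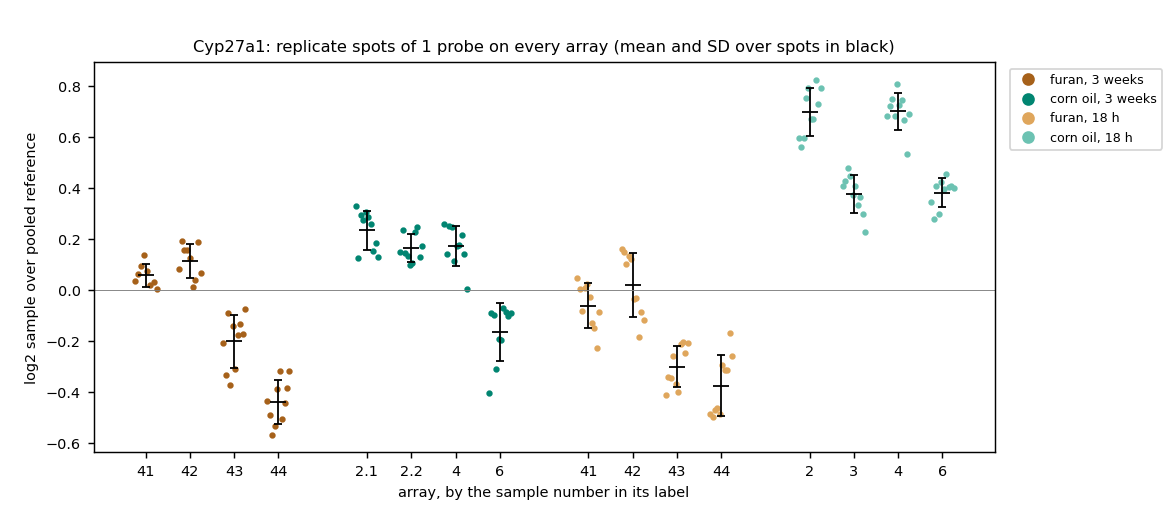
Log2 ratio of sample over pooled reference (vertical axis) for the replicate spots of the Cyp27a1 probe on each of 16 arrays (horizontal axis, by sample number), with the mean and SD over spots in black. At 18 h furan arrays have means of -0.37 to 0.02 and corn oil arrays of 0.38 to 0.70, and at 3 weeks furan arrays (-0.44 to 0.11) and corn oil arrays (-0.16 to 0.23) overlap.

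Hsd3b7, the 3-beta dehydrogenase that acts on the steroid ring after the first hydroxylation, was higher. It had 0.03, -0.01, 0.12 and -0.03 in furan livers 41 to 44 at 18 h, against -0.29, -0.30, -0.41 and -0.78 in corn oil livers 2, 3, 4 and 6. All furan livers lay above all corn oil livers, and the level was 1.39-fold higher (log2 difference 0.47, SE 0.11, adjusted p 0.00614). Akr1d1, the 5-beta reductase that shapes the bile acid nucleus, had 0.29, 0.24, 0.34 and 0.19 in the furan livers, against -0.17, -0.28, 0.17 and -0.04 in the corn oil livers. The groups did not overlap, with furan liver 44 only just above corn oil liver 4. Akr1d1 was 1.27-fold higher (log2 difference 0.34, SE 0.11, adjusted p 0.0209). It was the dimmest of the 10 probes, and it was not well above background in corn oil liver 2. The call was lost without corn oil liver 2 (adjusted p 0.0525), without corn oil liver 3 (0.0660) or without furan liver 43 (0.0645).

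To set letters beside these differences, promoters are shown for called genes with an entry in the RefSeq promoter table (build GRCm38.p6), which held 5 of the 9 genes. These were Cyp8b1 and Cyp27a1, which were lower, and Hsd3b7 and Akr1d1, which were higher. Baat and Slc27a5 had no entry. Each line gives the 250 bases before the annotated start, 5′ to 3′ on the gene's strand, with matches to the motifs searched in capitals.
Cyp8b1 (chr9:121916306-121916555, minus strand): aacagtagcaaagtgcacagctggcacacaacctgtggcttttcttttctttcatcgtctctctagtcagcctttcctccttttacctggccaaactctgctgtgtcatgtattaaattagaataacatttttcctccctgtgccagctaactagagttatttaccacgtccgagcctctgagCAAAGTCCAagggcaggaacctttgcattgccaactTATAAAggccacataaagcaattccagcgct
Cyp27a1 (chr1:74713285-74713534, plus strand): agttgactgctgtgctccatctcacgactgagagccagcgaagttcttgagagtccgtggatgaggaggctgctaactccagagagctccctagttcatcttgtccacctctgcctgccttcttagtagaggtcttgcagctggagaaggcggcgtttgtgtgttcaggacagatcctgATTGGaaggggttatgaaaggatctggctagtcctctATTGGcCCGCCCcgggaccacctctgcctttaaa
Hsd3b7 (chr7:127800359-127800608, plus strand): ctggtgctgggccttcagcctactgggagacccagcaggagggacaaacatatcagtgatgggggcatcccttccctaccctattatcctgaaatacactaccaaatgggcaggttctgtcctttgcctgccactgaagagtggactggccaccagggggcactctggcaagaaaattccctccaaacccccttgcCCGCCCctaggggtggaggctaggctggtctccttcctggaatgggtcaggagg
Akr1d1 (chr6:37529923-37530172, plus strand): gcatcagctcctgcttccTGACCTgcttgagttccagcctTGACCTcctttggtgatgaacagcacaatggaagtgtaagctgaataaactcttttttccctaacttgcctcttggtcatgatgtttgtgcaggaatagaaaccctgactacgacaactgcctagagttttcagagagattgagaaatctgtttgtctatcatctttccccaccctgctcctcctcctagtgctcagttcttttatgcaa

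The motifs were searched on both strands from 250 bases before to 50 bases after the start, with positions counted back from the start. In the Cyp8b1 promoter the capitals mark CAAAGTCCA, a site form of the liver factor HNF4A, at -67 to -59 and the TATA box TATAAA at -31 to -26. Of 32851 promoters of this length, 0.475% held the HNF4A letters and 13.6% the TATA letters. Cyp27a1 had CCAAT boxes (CCAAT, in 37.4% of promoters) at -71 to -67 and -34 to -30 and a GC box (GGGCGG, 35.7%) at -28 to -23, each on the opposite strand. Hsd3b7 held a GC box at -54 to -49, also on the opposite strand. Akr1d1 held 2 copies of the nuclear receptor hexamer AGGTCA (16.3%), at -232 to -227 and -210 to -205, both on the opposite strand. Nr0b2, whose promoter is not shown, held CAAGGCCA (2.40%), a site form of LRH-1, at -201 to -194, overlapping the E-box CACGTG (7.15%) at -195 to -190, besides a GC box at -42 to -37 and a TATA box at -28 to -23. None of the 5 windows held CAAGGTCA (1.56%), the inverted repeat bound by FXR (0.00913%), both of which contain the hexamer, or the D-box TTATGTAA (0.938%). A match describes letters in this window and was not tested against the expression values.

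Cyp7a1, Cyp7b1 and Nr0b2 varied more between livers of 1 group than between the groups at 18 h. Cyp7a1 had -0.91, 0.07, -0.02 and -0.26 in furan livers 41 to 44, against -0.39, 0.17, -0.20 and 0.84 in corn oil livers 2, 3, 4 and 6. The groups overlapped, with corn oil liver 6 highest and furan liver 41 lowest. The difference was -0.38 (95% interval -0.95 to 0.19, adjusted p 0.243). Leaving out 1 liver at a time moved it between -0.63, without corn oil liver 2, where it passed the test (adjusted p 0.0393), and -0.14, without corn oil liver 6 (0.647).

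Cyp7b1, the oxysterol 7-alpha hydroxylase, had -0.38, -0.03, 0.09 and -0.06 in furan livers, against 0.03, -0.19, -0.31 and -0.70 in corn oil livers, and the groups overlapped (difference 0.19, 95% interval -0.14 to 0.53, adjusted p 0.317). Nr0b2 had 0.42, 0.13, -0.33 and 0.01 in furan livers, against 1.29, -0.06, -0.19 and 0.21 in corn oil livers. Corn oil liver 2 stood well above all other livers, and the difference over all livers was -0.25 (95% interval -0.86 to 0.35, adjusted p 0.468). Leaving out 1 liver at a time gave Nr0b2 differences of -0.44 to 0.09, the last without corn oil liver 2, so the direction turned on that liver. The sign of the Nr0b2 difference was opposite on the 2 slides, 0.40 on slide 1 and -0.91 on slide 2.

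Within either slide, with 2 furan and 2 corn oil livers each, the 6 called differences kept their sign. Their groups did not overlap over all livers, so the sign could not have changed, and only the sizes are informative. Cyp8b1 differed by -1.06 on slide 1 and -1.13 on slide 2, Cyp27a1 by -0.56 and -0.88, and Slc27a5 at A_51_P289742 by -0.67 and -0.89. These 3 were called on each slide, while Baat, Hsd3b7 and Akr1d1 were not called on either slide alone.

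**Figure D2:**
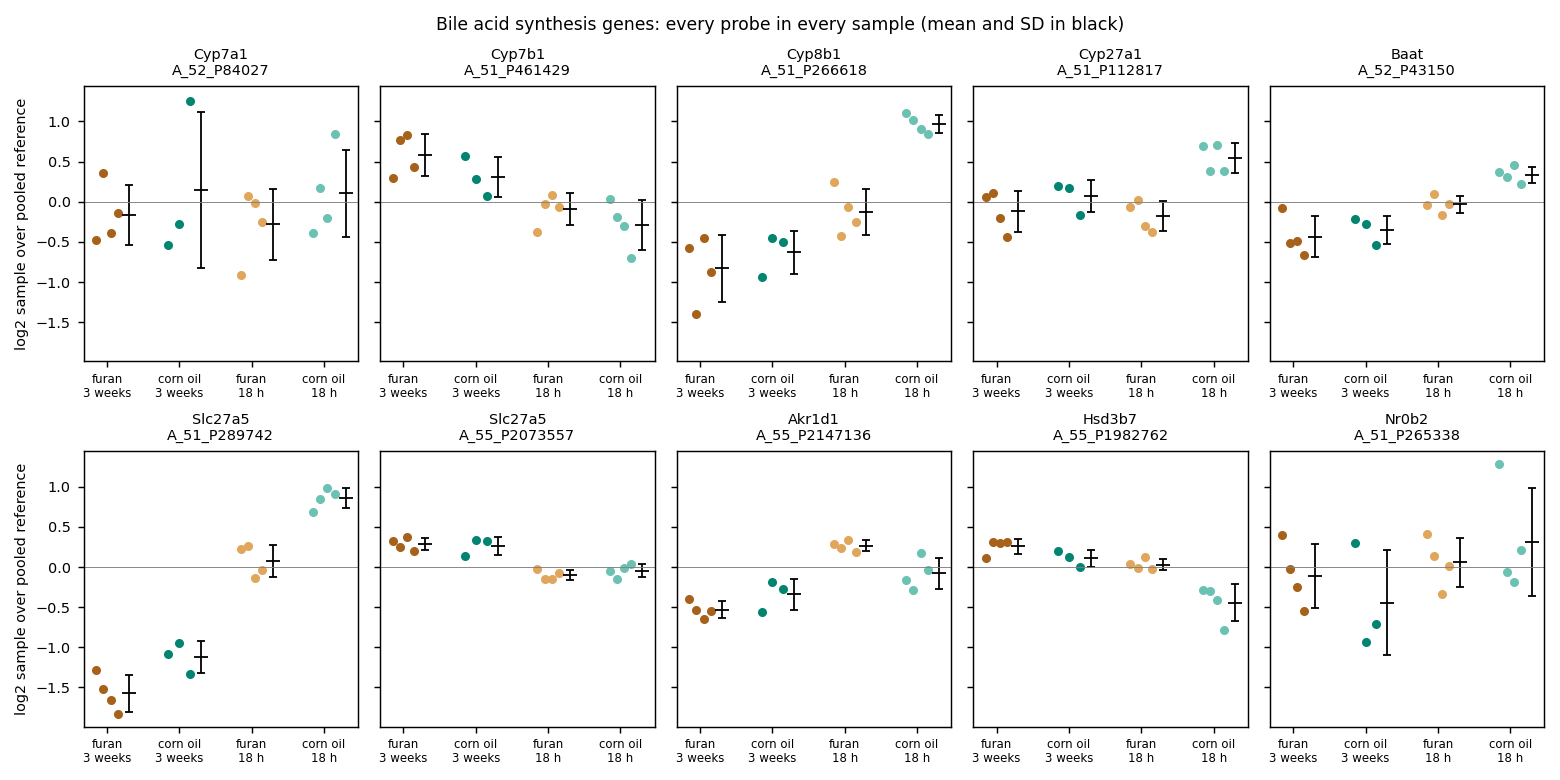
Log2 ratio of sample over pooled reference (vertical axis) for each of the 10 probes in every sample, by treatment and time in formalin, with the mean and SD of each group in black (n = 4, or 3 for corn oil at 3 weeks). Corn oil livers at 18 h lie above the other 3 groups for Cyp8b1, Cyp27a1 and Slc27a5 A_51_P289742, and Cyp7a1 and Nr0b2 spread widely within groups.

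The second comparison asked the same of livers kept in formalin for 3 weeks, over 4 furan and 3 corn oil samples. None of the 10 probes was called by limma (lowest adjusted p 0.198), and for none did the groups stand apart. At an unadjusted p under 0.05 there was 1 of 10, against 4102 of all 29690 probes. A fit to Agilent's own log ratios called 0 at the adjusted threshold. Over all probes 0.118% were called, and the groups stood apart for 13.4%. The median difference was -0.14 over the 10 probes and -0.000733 over all. The mean log2 ratio of the 9 hepatocyte markers was -0.82 to -0.40 in furan livers and -0.70 to -0.31 on the corn oil arrays at 3 weeks, and 0 of 9 were called.

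The Slc27a5 probe A_51_P289742 came closest. It had -1.29, -1.51, -1.65 and -1.83 in furan livers 41 to 44 at 3 weeks, against -1.05, -1.11, -0.95 and -1.33 on corn oil arrays 2.1, 2.2, 4 and 6. Furan liver 41 overlapped with corn oil liver 6, and the other furan livers lay below all corn oil livers. The difference was -0.45 (SE 0.13, 95% interval -0.75 to -0.16, adjusted p 0.198), and it was called when all 15 samples shared 1 fit (adjusted p 0.0293). The other Slc27a5 probe had 0.32, 0.25, 0.37 and 0.20 in furan livers, against 0.11, 0.16, 0.34 and 0.32 on the corn oil arrays, and differed by 0.02 (95% interval -0.27 to 0.31).

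Cyp8b1 had -0.58, -1.39, -0.45 and -0.88 in furan livers at 3 weeks, against -1.07, -0.80, -0.46 and -0.50 on corn oil arrays 2.1, 2.2, 4 and 6. The groups overlapped, with furan liver 42 lowest. The Cyp8b1 probe was not well above background in furan liver 42 and on corn oil arrays 2.1 and 2.2, and the difference was -0.20 (95% interval -0.69 to 0.30, adjusted p 0.756). Cyp27a1 had 0.06, 0.11, -0.20 and -0.44 in furan livers, against 0.23, 0.17, 0.17 and -0.16 on the corn oil arrays. Its groups overlapped too, and the difference was -0.19 (95% interval -0.49 to 0.11, adjusted p 0.587).

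Baat had -0.07, -0.51, -0.48 and -0.67 in furan livers, against -0.14, -0.29, -0.28 and -0.54 on the corn oil arrays (difference -0.09, 95% interval -0.42 to 0.25). Hsd3b7 had 0.12, 0.31, 0.29 and 0.31 in furan livers, against 0.19, 0.22, 0.12 and 0.00 on the corn oil arrays (difference 0.15, 95% interval -0.14 to 0.44). Furan liver 41 was the low one among the Hsd3b7 values of its group, and both genes overlapped between groups. The Akr1d1 probe failed to stand well above background on all 3-week arrays, so its values of -0.39, -0.53, -0.65 and -0.54 in furan livers and -0.44, -0.68, -0.19 and -0.28 on the corn oil arrays give no fold.

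Cyp7a1 had -0.48, 0.36, -0.39 and -0.14 in furan livers at 3 weeks, against -0.52, -0.56, -0.28 and 1.25 on corn oil arrays 2.1, 2.2, 4 and 6. Corn oil liver 6 was again the highest, and its probe was not well above background on corn oil array 2.2. The Cyp7a1 difference was -0.31 (95% interval -1.12 to 0.51), with opposite signs on slide 1 (0.34) and slide 2 (-0.61). Cyp7b1 had 0.30, 0.77, 0.83 and 0.43 in furan livers, against 0.72, 0.42, 0.28 and 0.08 on the corn oil arrays (difference 0.27, 95% interval -0.13 to 0.68). Nr0b2 had 0.40, -0.03, -0.25 and -0.55 in furan livers, against 0.29, 0.30, -0.93 and -0.71 on the corn oil arrays (difference 0.34, 95% interval -0.30 to 0.98). Neither gene separated the groups, and the Nr0b2 difference too had opposite signs on slide 1 (0.50) and slide 2 (-0.20).

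**Figure D3:**
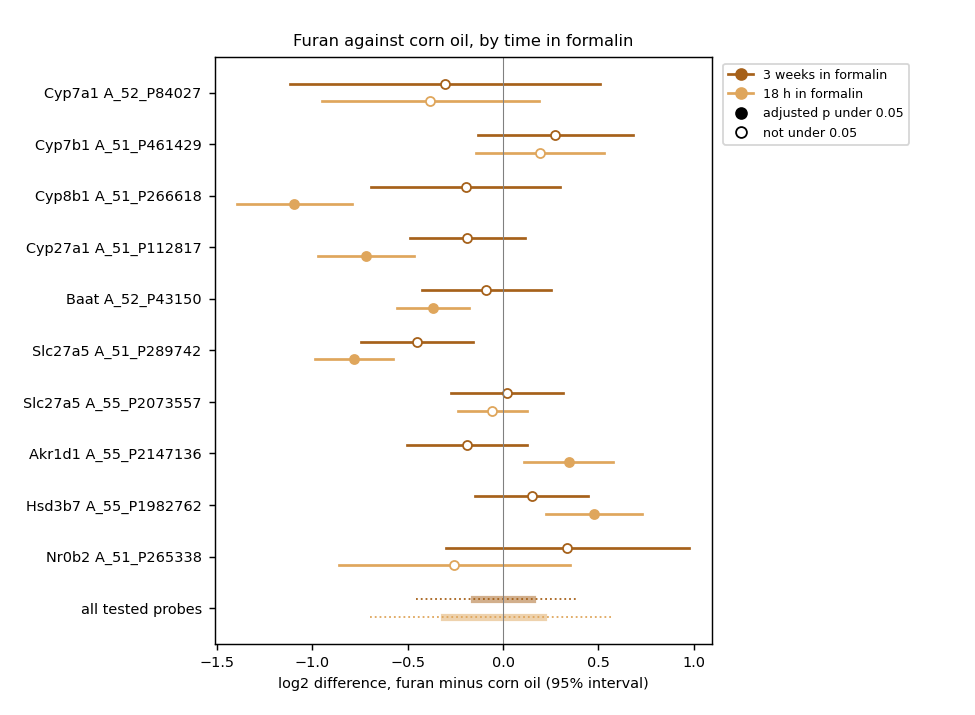
Log2 difference, furan minus corn oil (horizontal axis), for each probe (vertical axis) at 3 weeks and at 18 h in formalin, with 95% intervals, filled where limma's adjusted p is under 0.05. The bottom row shows the middle 50% (thick) and middle 90% (dotted) of all tested probes, and 6 probes are filled at 18 h and 0 at 3 weeks.

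A test of the difference between the 2 furan effects, 3 weeks minus 18 h, called 2 of 10 probes, Cyp8b1 (higher) and Akr1d1 (lower), against 12.8% of all probes, 7.82% higher and 4.93% lower. The Cyp8b1 effects, -0.20 at 3 weeks and -1.09 at 18 h, differed by 0.90 (SE 0.28, adjusted p 0.0417). The Akr1d1 effects differed by -0.53 (SE 0.17, adjusted p 0.0462), but the effect at 3 weeks rests on values not well above background. Cyp27a1, with effects of -0.19 at 3 weeks and -0.72 at 18 h, differed by 0.53 and missed the threshold (adjusted p 0.0560).

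These 3 results lay close to the threshold and turned on single samples. Leaving out 1 of the 15 samples at a time gave adjusted p values of 0.00941 to 0.101 for Cyp8b1, which was called in 5 of 15 fits. The Cyp8b1 call was lost without corn oil liver 2, 3 or 4 or furan liver 42, 43 or 44 at 18 h, and without corn oil sample 2 or 6 or furan sample 41 or 43 at 3 weeks. For Akr1d1 the range was 0.0220 to 0.111, and the call held in 3 of 15 fits, those without corn oil liver 4 at 18 h or without corn oil sample 2 or furan sample 41 at 3 weeks. Cyp27a1 was called in 3 of 15 fits (0.0216 to 0.132), those without corn oil liver 3 at 18 h or without corn oil sample 2 or furan sample 44 at 3 weeks. Baat, Slc27a5 at A_51_P289742 and Hsd3b7 were called at 18 h and not at 3 weeks, but the difference between those effects did not pass the test (adjusted p 0.278, 0.149 and 0.211).

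The time in formalin itself was compared within each treatment. In furan livers 6 of 10 probes were called between 3 weeks and 18 h, 2 higher and 4 lower, against 67.1% of all probes (35.1% higher and 32.0% lower). In corn oil livers 7 of 10 were called, 3 higher and 4 lower, against 59.3% of all probes (28.5% higher and 30.8% lower). The groups stood apart for 5 of 10 probes in furan livers (57.6% of all probes) and for 7 of 10 in corn oil livers (58.6%). The 2 comparisons contrast different samples, but both were fitted over all 15 samples, so they share a slide term and an estimate of the spread. They also use the same samples as the furan comparisons. The 9 hepatocyte markers had 1 higher and 4 lower at 3 weeks in furan livers, and 0 higher and 5 lower in corn oil livers, and their part in the values below was not tested.

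The probe A_51_P289742 of Slc27a5 had the largest difference. Its log2 ratio averaged -1.57 ± 0.23 at 3 weeks and 0.08 ± 0.20 at 18 h in furan livers (SD, n = 4 each), and -1.12 ± 0.20 (n = 3) at 3 weeks and 0.86 ± 0.13 (n = 4) at 18 h in corn oil livers. The level was 3.13-fold lower at 3 weeks in furan livers (adjusted p 6.29e-10) and 3.94-fold lower in corn oil livers (2.20e-10). The other probe of the gene went the other way: it averaged 0.29 ± 0.08 at 3 weeks and -0.10 ± 0.07 at 18 h in furan livers, and 0.26 ± 0.11 at 3 weeks and -0.04 ± 0.08 at 18 h in corn oil livers. That rise was 0.39 in furan livers (adjusted p 0.00141) and 0.31 in corn oil livers (adjusted p 0.0128), and it was sensitive to the processing. The corn oil difference was 0.02 on Agilent's log ratios and 0.10 in the authors' deposited values and was then not called. The corn oil call was also lost without corn oil sample 4 at 3 weeks (adjusted p 0.0582), within slide 1 (0.137) and within slide 2 (0.203). The furan call was lost on Agilent's log ratios (difference 0.24, adjusted p 0.108), within slide 1 (0.0665) and within slide 2 (0.0517).

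Cyp8b1 averaged -0.83 ± 0.42 at 3 weeks and -0.13 ± 0.29 at 18 h in furan livers, and -0.63 ± 0.27 at 3 weeks and 0.97 ± 0.11 at 18 h in corn oil livers. It was 1.62-fold lower at 3 weeks in furan livers (adjusted p 0.00352) and 3.03-fold lower in corn oil livers (3.72e-06). These sizes are uncertain, because the probe was not well above background on 1 of 4 furan and 2 of 4 corn oil arrays at 3 weeks. Under the alternatives the log2 difference was -1.62 to -0.44 in furan livers, where the call was lost within slide 2 (adjusted p 0.0534), and -2.37 to -1.25 in corn oil livers. Baat was 1.32-fold lower at 3 weeks in furan livers, where the groups overlapped (adjusted p 0.00450), and 1.60-fold lower in corn oil livers (0.000128). Cyp27a1 was called in corn oil livers, where it fell by 0.47 (SE 0.13, adjusted p 0.00476), though not within slide 1 (0.109). Its difference in furan livers was 0.06 (95% interval -0.19 to 0.31).

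Among the genes that were higher at 3 weeks, Cyp7b1 averaged 0.58 ± 0.26 at 3 weeks and -0.10 ± 0.20 at 18 h in furan livers, a 1.60-fold rise (adjusted p 0.00204). In corn oil livers it averaged 0.31 ± 0.25 at 3 weeks and -0.29 ± 0.31 at 18 h, a 1.51-fold rise (adjusted p 0.00969) that was lost without corn oil sample 2 at 3 weeks (0.0601). Within slide 2 the Cyp7b1 call was lost in furan livers (adjusted p 0.0590) and in corn oil livers (0.0783). Hsd3b7 rose 1.47-fold in corn oil livers (adjusted p 0.000950), and in furan livers it differed by 0.23 (adjusted p 0.0835). The furan difference passed the test without background subtraction (adjusted p 0.0102), on Agilent's log ratios (0.0331), without corn oil liver 6 at 18 h (0.0412) and without furan sample 41 at 3 weeks (0.0481). Akr1d1 was well above background on 0 of 4 furan arrays at 3 weeks and 4 of 4 at 18 h, and on 0 of 4 corn oil arrays at 3 weeks and 3 of 4 at 18 h. Its signal at 3 weeks was therefore only bounded, from group mean signals with no error attached. The bounds were 1.62-fold lower or more in furan livers and 1.16-fold lower or more in corn oil livers. By limma the corn oil difference of -0.26 was not called (adjusted p 0.0768). Akr1d1 passed the filter on dim probes only through the 18 h groups, where it is high. Its bounds and its call in furan livers, 1 of the 6 there, are therefore not read as results.

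Cyp7a1 was not called in either treatment, with differences of 0.12 in furan livers (95% interval -0.59 to 0.83) and 0.04 in corn oil livers (-0.72 to 0.80). Nr0b2 differed by -0.16 in furan livers (95% interval -0.83 to 0.50) and by -0.76 in corn oil livers (-1.47 to -0.04, adjusted p 0.0636). The Nr0b2 difference in corn oil livers passed the test without corn oil liver 3 at 18 h (adjusted p 0.0486), without corn oil liver 4 at 18 h (0.0325) or without corn oil sample 2 at 3 weeks (0.0110). Over all such fits it was -1.13 to -0.39, the smallest without corn oil liver 2 at 18 h.

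**Figure D4:**
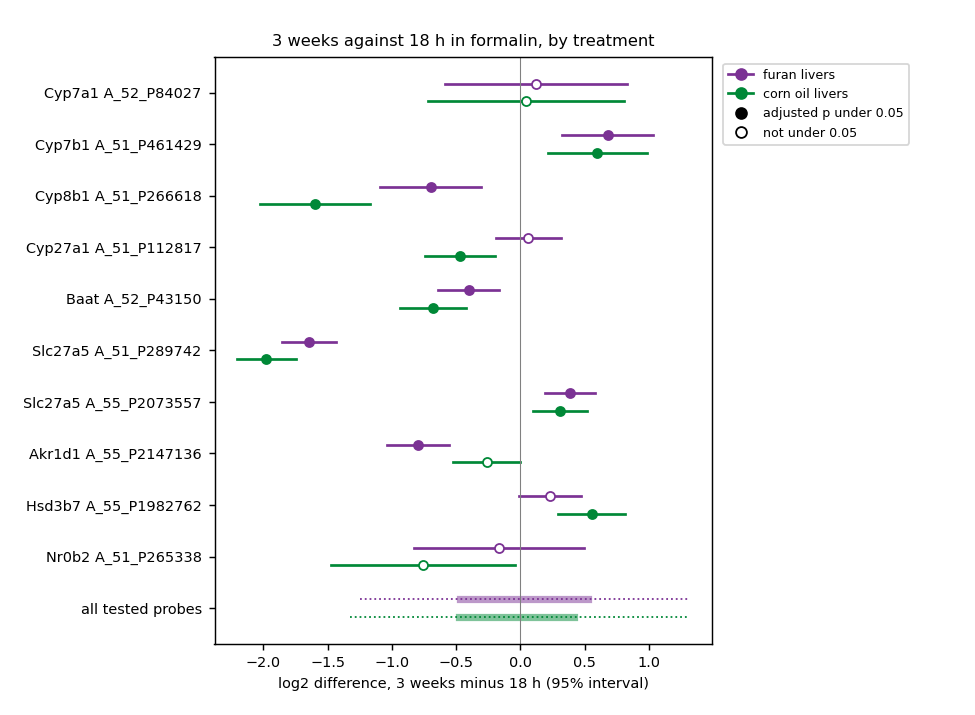
Log2 difference, 3 weeks minus 18 h in formalin (horizontal axis), for each probe (vertical axis) in furan and in corn oil livers, with 95% intervals, filled where limma's adjusted p is under 0.05. The bottom row shows the middle 50% (thick) and middle 90% (dotted) of all tested probes, and the 2 Slc27a5 probes lie on opposite sides of 0 in both treatments.

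The wide within-group spread of Cyp7a1 and Nr0b2 recurred in samples of the same number at the 2 times. For 7 numbers present at both times, each value was set as its deviation from its group mean. The deviations at 3 weeks and 18 h correlated for Cyp27a1 (Pearson r 0.96, Spearman rho 0.86), Nr0b2 (0.90, 0.86), Cyp7b1 (0.88, 0.93) and Cyp7a1 (0.88, 0.86). The 7 pairs were permuted in all 5040 orders across both treatments, and p was adjusted over 10 probes. On Pearson's r this permutation p was 0.0152 for Cyp27a1, Nr0b2 and Cyp7b1 and 0.0179 for Cyp7a1. On Spearman's rho it was 0.0595 for each. Deviations were centred within groups of unequal spread, for Cyp7a1 at 3 weeks SD 0.97 in corn oil and 0.37 in furan livers. They are not interchangeable between treatments, so these p values are only approximate. Without the 2 samples farthest from the median at 18 h, r was 0.93, 0.72, 0.77 and 0.85. The other 6 probes had r of 0.23 to 0.61 and adjusted p values of 0.286 or more.

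Over all probes the median r between same-numbered samples was 0.11, and 0.212% of probes reached the r of Cyp27a1 and 2.21% that of Cyp7a1. The labels do not say that a number marks 1 animal, and number 4 and the furan numbers kept their slide at both times, as did number 6, while number 2 was measured on both slides at 3 weeks. The part of the slide in these correlations was not tested. Across the 8 numbers, Nr0b2 and Cyp7a1 deviations averaged over the times gave r of -0.44 (permutation p 0.281) and rho of -0.26 (0.536). These permutations too ran across both treatments. Without the 2 numbers farthest in Nr0b2 r was 0.66, so no relation held.

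**Figure D5:**
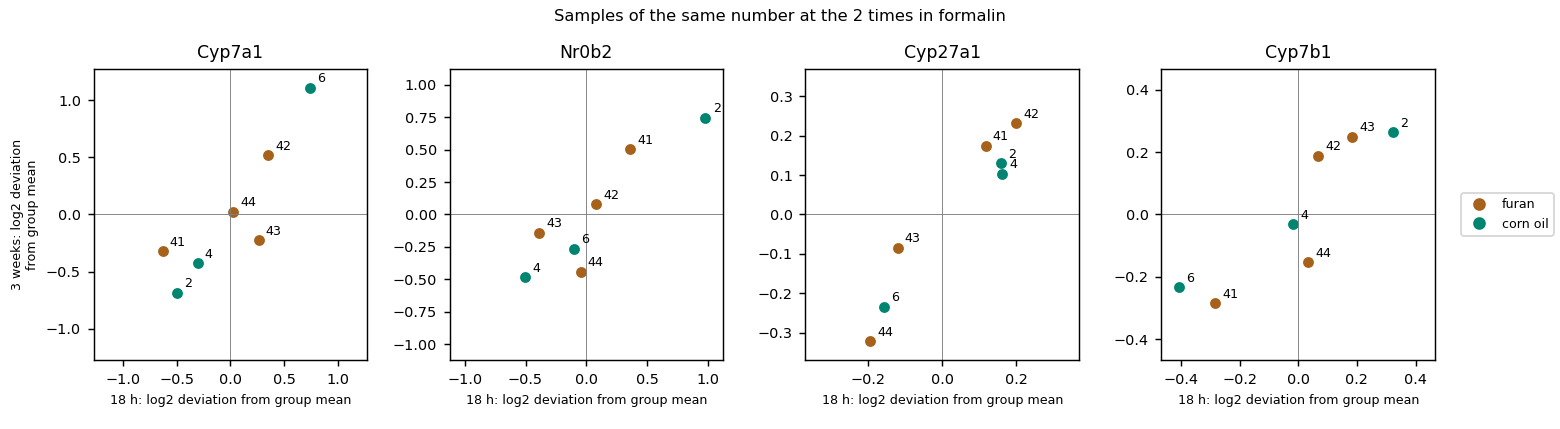
Deviation of the log2 ratio from its group mean at 3 weeks (vertical axis) against that at 18 h (horizontal axis) for samples of the same number, labelled by number, furan and corn oil. Corn oil sample 6 is highest at both times for Cyp7a1 and corn oil sample 2 for Nr0b2.

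The genes that act beside these enzymes were described from 3 lists. Of the peroxisomal, side chain and other sterol hydroxylase genes, 12 of 13 were tested, and at 18 h 6 were higher and 2 lower in furan livers (median difference 0.25). Over all probes at 18 h, 47.2% were called, 20.4% higher and 26.8% lower, with a median of -0.05, and the counts of all 3 lists are given beside that share with no test between them. Cyp46a1, cholesterol 24-hydroxylase, fell by 2.23 (SE 0.13, adjusted p 4.20e-06), while Acox2, the peroxisomal oxidase of the bile acid side chain, rose by 0.74 (SE 0.08). Slc27a2, which activates very long chain fatty acids and bile acid precursors, rose by 0.67 (SE 0.09), and Hsd17b4, the multifunctional enzyme of peroxisomal side chain oxidation, by 0.62 (SE 0.10). At 3 weeks Cyp46a1 was the 1 gene called, lower by 1.00 on the log2 scale (adjusted p 0.0439). Its furan effects differed between the times by 1.23 (adjusted p 0.00146), and those of Slc27a2 by -0.99 (0.000980), Amacr by -0.49 (0.0253) and Hsd17b4 by -0.55 (0.0217).

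All 14 regulators of Cyp7a1 on the second list were tested, and at 18 h 5 were higher and 5 lower (median difference 0.15). Rxra, the partner of FXR and other nuclear receptors, fell by 1.32 (SE 0.10), and Nr1i3, the receptor CAR, fell by 0.84 (SE 0.10). Hnf4a, a liver-enriched activator of several of these enzymes, rose by 0.87 (SE 0.09), and Cebpb, a C/EBP factor, by 0.91 (SE 0.10). None of the 14 was called at 3 weeks, and the difference between the times was called for 6, against 12.8% of all probes, among them Rxra (1.04), Nr1i3 (0.53), Hnf4a (-0.76) and Cebpb (-0.67). Of 11 FXR target and bile acid carrier genes 9 were tested. At 18 h Abcc3, a basolateral exporter, rose by 0.42 (SE 0.08) and Fgf21, a hepatic hormone, by 0.32 (SE 0.11), none was lower, and at 3 weeks none was called. Without background subtraction 1 carrier gene was higher and 3 were lower at 18 h, so the count for this list depended on the scaling.

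Between 3 weeks and 18 h, 67.1% of all probes were called in furan livers (35.1% higher and 32.0% lower, median difference 0.03) and 59.3% in corn oil livers (28.5% higher and 30.8% lower), and the counts of these lists stand beside those shares. Among side chain genes 2 were higher and 6 lower at 3 weeks in furan livers (median difference -0.74), and 4 were higher and 7 lower in corn oil livers (-0.96). Acaa1b, a peroxisomal thiolase, differed by -2.17 in furan livers and -2.07 in corn oil livers, and Abcd3, a peroxisomal transporter, by -2.01 in furan livers and -1.57 in corn oil livers. Amacr, a racemase of the sterol side chain, differed by -1.93 in furan livers and -1.44 in corn oil livers. Of the regulators 4 were higher and 9 lower in furan livers, and 4 were higher and 8 lower in corn oil livers. Nr5a2, the receptor LRH-1, differed by -1.71 in furan livers and -1.18 in corn oil livers, while Fgfr4, the receptor for an intestinal hormone, differed by 1.23 in furan livers and 1.25 in corn oil livers. Of the carriers 3 were higher and 5 lower in furan livers, and 4 were higher and 5 lower in corn oil livers. The uptake carriers Slc10a1 (-2.13 in furan livers and -1.75 in corn oil livers) and Slco1b2 (-2.04 in furan livers and -2.06 in corn oil livers) were among the lower ones, as were the exporters Abcb11 (-1.77 in furan livers, -1.52 in corn oil livers) and Abcc2 (-1.69 in furan livers, -1.91 in corn oil livers).

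Across the 15 samples, after the mean of each time in formalin was subtracted, the genes whose values ran closest to a member were named from 13051 genes. For Cyp7a1 these were Alas1, the first enzyme of heme synthesis (r 0.88), Tmem184a (0.87) and Ncoa7 (0.86). Wdr47 (0.87) ran closest to Cyp7b1, and for Nr0b2 they were Nlrx1 (0.82), Krtap16-3 (0.80) and Btd (0.76). Cyp8b1 ran closest to Surf1 (0.92), Cyp27a1 to Grina (0.98), Baat to Ces1c, a carboxylesterase (0.95), Hsd3b7 to Rfk, riboflavin kinase (0.91), Akr1d1 to AY074887 (0.89) and Slc27a5, by its brighter probe, to Rae1 (0.84). These coefficients describe samples that share slides, a pooled reference and the treatment. They were picked as the highest among 13051 genes, so they are high by selection. The Akr1d1 values at 3 weeks were not well above background on any array.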

How the data were processed

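The deposited scanner files hold spot intensities read with Agilent Feature Extraction 11.0.1.1, per the file headers, from arrays with 62976 spots designed on build mm9. Their log10 ratios were background-subtracted and dye-normalized by that software, per the file headers. The authors' deposited value table holds log2 ratios whose normalization is not given in the sources used here; its columns have medians of -0.00919 to 0.0247 and follow the direction of sample over pool. The labels give low RNA integrity numbers, as is usual for such tissue.

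Median intensities were corrected with normexp (offset 50) and normalized by loess within arrays in limma 3.58.1 (R 4.3.3, with the data.table package, version 1.17.8), control and outlier spots were left out, and spots of a probe were averaged. Probes were kept if well above background on 3 arrays or more of 1 group. Accessions were matched to symbols through RefSeq tables, which named 27235 of 55681 probes. Furan effects were fitted within each time with slide as a term, and the other comparisons over all 15 samples. P values were Benjamini-Hochberg adjusted over all kept probes, with a threshold of 0.05 and 95% intervals, and the fit was tested on simulated data. The labels call the samples of a group biological replicates. For list genes the brightest kept probe was used, and the called genes with the smallest p, up to 4 a list, were named. The members and lists were chosen with earlier results of these data known. Alternatives were another background correction, Agilent's and the authors' values, other filters, slide, and samples left out. Plots were drawn in Python 3.11.15 with numpy 2.4.6 and matplotlib 3.10.9.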

Additional observations from a re-analysis of the deposited data

Results flagged for a closer look

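Hsd3b7 in furan sample 41 at 3 weeks had a log2 ratio of 0.118 and lay far from the other 3 furan samples, with a gap to the nearest of 0.907 of the group's range, past the 95% critical value of Dixon's test. It was 1 such value among 30 groups tested, and chance gives about 1 in 20. The furan effect differed between 3 weeks and 18 h for Cyp8b1, by 0.898, and for Akr1d1, by -0.534, by limma's test of the difference itself. The Akr1d1 probe was not well above background at 3 weeks, and both differences lost their call in most fits that left out 1 sample.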

How the results depend on the processing

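No result changed sign past its threshold. For furan at 18 h the count of called probes was 6 of 10, and it was 3 within slide 1 and 3 within slide 2, where fewer samples were fitted, and 5 to 6 without 1 sample at a time. For furan at 3 weeks it was 0, with 1 when all samples shared 1 fit and 0 to 0 without 1 sample. The difference between the furan effects was called for 2 probes. That count was 4 without background subtraction, 0 on Agilent's log ratios, 0 with no filter on dim probes, 1 of the 7 probes well above background on all arrays, 0 within slide 1, 0 within slide 2, 1 with arrays 2.1 and 2.2 as separate samples, and 0 to 2 without 1 sample; the cause was not tested. Between 3 weeks and 18 h the counts were 6 in furan livers (3 within slide 2, 6 to 7 without 1 sample) and 7 in corn oil livers (6 to 9 without 1 sample). In corn oil livers the calls of Cyp27a1 (adjusted p 0.109) and Slc27a5 at A_55_P2073557 (0.137) were lost within slide 1. Within slide 2 those of Cyp7b1 (0.0783) and of the same Slc27a5 probe (0.203) were lost. Aquantile after loess leaves log ratios as they are by construction.

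Over all probes the 3-week count was 35, against 449 without background subtraction, 0 on Agilent's log ratios, 312 in the authors' values, 72 without the slide term, 130 under the strict filter, 322 with arrays 2.1 and 2.2 separate, 0 within slide 1, 265 within slide 2, 1299 in 1 fit of all samples, and 0 to 770 without 1 sample. The 18 h count was 14025, against 9125 under the strict filter, 8151 within slide 1 and 7049 within slide 2. The count for the difference was 3787, against 5128 without background subtraction, 2286 on Agilent's log ratios and 2222 without a filter. It was 3489 under the strict filter, 4273 with arrays 2.1 and 2.2 separate, 0 within slide 1 and 1 within slide 2. Without 1 sample at a time the counts were 12086 to 13045 at 18 h and 2548 to 4006 for the difference. They were 18627 to 20195 for time in furan livers and 16312 to 17885 in corn oil livers. Within slide 2 time was called for 14622 probes in furan livers and 13612 in corn oil livers. The strict filter gave 11455 against 19935 for time in furan livers and 10875 against 17621 in corn oil livers. Agilent's log ratios moved the median of all probes by time to -0.11 in furan livers and -0.16 in corn oil livers.

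Samples with the same number at both times correlated at 0.0189 to 0.182 in their deviations, and 5 of 7 correlated best with their own number. These values do not show that the samples were unpaired. The labels do not say that a number marks 1 animal, and the main fits left the number out. With the number as a replicate block, without the slide term, the counts were 3 for the difference, 6 for time in furan livers and 8 in corn oil livers. Over all 29690 probes the block fit called 2699, 19754 and 16095 in the same order. In corn oil livers the block called Nr0b2 (-0.88, adjusted p 0.000303) and Akr1d1 (-0.33, 0.0312) and lost Slc27a5 at A_55_P2073557 (0.28, 0.0572). For the difference it called Cyp27a1 and Nr0b2 and lost Akr1d1. Akr1d1 in corn oil livers was also called on Agilent's log ratios (-1.82, adjusted p 7.28e-06), with arrays 2.1 and 2.2 separate (0.0268) and without corn oil liver 3 at 18 h (0.0253). Its probe was well above background on 0 of 4 corn oil arrays at 3 weeks. None of these Akr1d1 calls, that of the block included, is therefore read as a result. Counts for the pathway lists under other scalings were chosen after seeing the data. The dim probes Akr1d1, Cyp7a1 and Cyp8b1, with median sample signals of 2.24, 3.83 and 4.13 times background, limit what can be read at 3 weeks.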
